A study of Mus musculus with 8 samples.

Results

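The genes described here are 40 parts of the DNA replication machinery, out of 45777 genes in the deposited count table. They were chosen by name from the gene symbols of the authors' table of 16442 genes with regularized log2 values and joined to the counts by gene ID. All 40 passed the filter on low counts. Messenger RNA was sequenced from CD8+ T cells of C57BL/6 mice, taken from lymph node and spleen and stimulated through the T cell receptor with antibodies against CD3 and CD28. All groups carried that stimulation, and the treatments lasted 48 hours. There were 8 libraries, 2 for each of SGC-CBP30, Ctrl PIP, EnPGC-1 and the vehicle DMSO. The submitters' protocol calls the agents PIPs. SGC-CBP30 blocks the bromodomains of CBP and p300, which acetylate histones. No dose is stated, and no label says whether the libraries of a group came from different animals or cell cultures, so the p-values below reflect the spread between libraries, part or all of which may be technical.

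A cell copies its genome once per division. In G1 the origin recognition complex, with Cdc6 and Cdt1, loads the ring-shaped MCM helicase onto origins. At the start of S phase Cdc45 and the GINS complex join the ring and switch it on, primase and the polymerases then copy both strands, and the PCNA clamp holds the polymerases on DNA. Many of these genes are transcribed late in G1 by E2F factors, and a resting CD8+ T cell that is stimulated through its receptor turns them on before its first division. In RNA from a whole culture, fewer replicating cells and less RNA of these genes per cell cannot be told apart.

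Promoter sequences from RefSeq on GRCm38.p6, 250 bases before to 50 bases after each annotated start, were found for 32 of the 40 genes. They were searched on both strands for 4 forms of the E2F site, TTTGGCGC, TTTCCCGC, TTTGCCGC and TTTCGCGC, which can overlap each other. At least 1 of these stood in the promoters of 15 of the 32 genes (46.9%), against 2.6% of the 27025 genes with a promoter sequence and 4.48% of the 11806 of them that were tested for expression. A CCAAT box (CCAAT, either strand) stood in 68.8% of the 32 genes and in 41.1% of all. The following 60-base windows show E2F forms upstream of an annotated start and outside GENCODE exons, in a pair of helicase ring genes and in Uhrf1. That of Uhrf1 lies inside the gene, upstream of the second of its annotated starts. Each runs 5′ to 3′ on the gene's strand, and the capitals mark the E2F forms.
Mcm5, chr8:75109330-75109389, plus strand: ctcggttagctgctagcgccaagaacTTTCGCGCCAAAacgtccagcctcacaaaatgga
Mcm6, chr1:128359782-128359841, minus strand: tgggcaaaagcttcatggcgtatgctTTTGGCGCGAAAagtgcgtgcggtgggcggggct
Mcm6, chr1:128359719-128359778, minus strand: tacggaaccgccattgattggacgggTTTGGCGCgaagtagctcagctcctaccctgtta
Uhrf1, chr17:56304102-56304161, plus strand: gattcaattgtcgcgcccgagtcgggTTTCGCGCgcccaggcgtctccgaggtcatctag
In Mcm5 and in the first window of Mcm6 the capitals hold 2 forms on opposite strands that overlap each other. A match of letters is a description of the sequence and not a measured binding site.

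**Figure D1:**
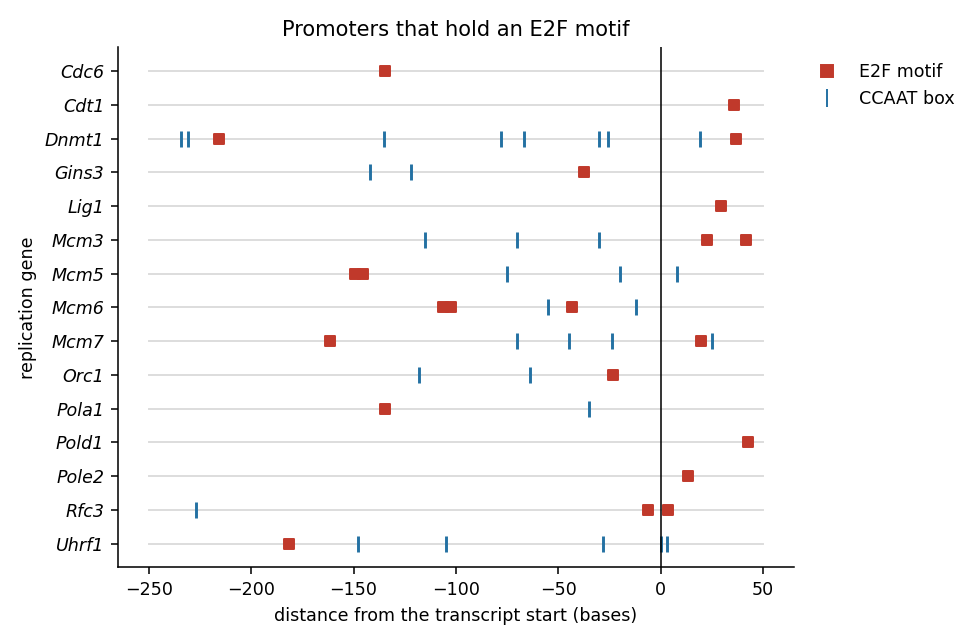
Positions of E2F forms (red squares) and CCAAT boxes (blue bars) in bases from the annotated transcript start, for the 15 replication genes that hold an E2F form; the grey line is the searched window, and windows of 1 gene with several starts are drawn on 1 line. E2F forms stand on both sides of the start, and Mcm5, Mcm6, Mcm7, Mcm3, Dnmt1 and Rfc3 hold more than 1.

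Total counts ranged from 38890043 to 55491261 per library. Levels below are CPM, each count as a share of its TMM-scaled library size. The 9 markers of CD8 T cells were present in every library, with a summed level of 3840 to 5467 CPM, Cd8a at 904 to 1241 CPM and Cd4 at 4.54 to 14.1 CPM. The 10 B cell markers summed to 19.3 to 61.0 CPM per library, the 10 myeloid markers to 7.83 to 70.2 CPM, the 8 erythroid markers to 1.996 to 17.0 CPM and the 5 NK cell markers to 1.27 to 9.21 CPM. The highest myeloid sum (70.2 CPM, of which Mpo made 44.3 CPM) and B cell sum (61.0 CPM) were both in EnPGC-1 replicate 1. That is also the library with the lowest replication genes. The B cell sum of DMSO replicate 1 was close, at 59.5 CPM. The part of these markers in the result was not tested. Replicates of DMSO and of EnPGC-1 stood far apart. With edgeR, the common coefficient of variation between libraries of a group was 0.562 in DMSO and EnPGC-1 and 0.159 in Ctrl PIP and SGC-CBP30.

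The replication genes moved together from library to library. EnPGC-1 replicate 1 held the lowest CPM of all 8 libraries for 40 of 40 genes, and DMSO replicate 1 the second lowest for 36. DMSO replicate 2 held the highest for 30 genes, Ctrl PIP replicate 2 for 7 and SGC-CBP30 replicate 2 for 3. The summed CPM of the 40 genes was 4287 and 8207 in DMSO, 2918 and 5571 in EnPGC-1, 7422 and 7451 in Ctrl PIP, and 5211 and 6672 in SGC-CBP30, giving means of 6247 ± 2772, 4244 ± 1876, 7436 ± 20.5 and 5942 ± 1033 (SD, n = 2 each). The EnPGC-1 libraries therefore lay on either side of the lower DMSO library, and both lay below both Ctrl PIP libraries. The difference between the DMSO replicates had a median of 1.02 (log2) over the 40 genes.

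**Figure D2:**
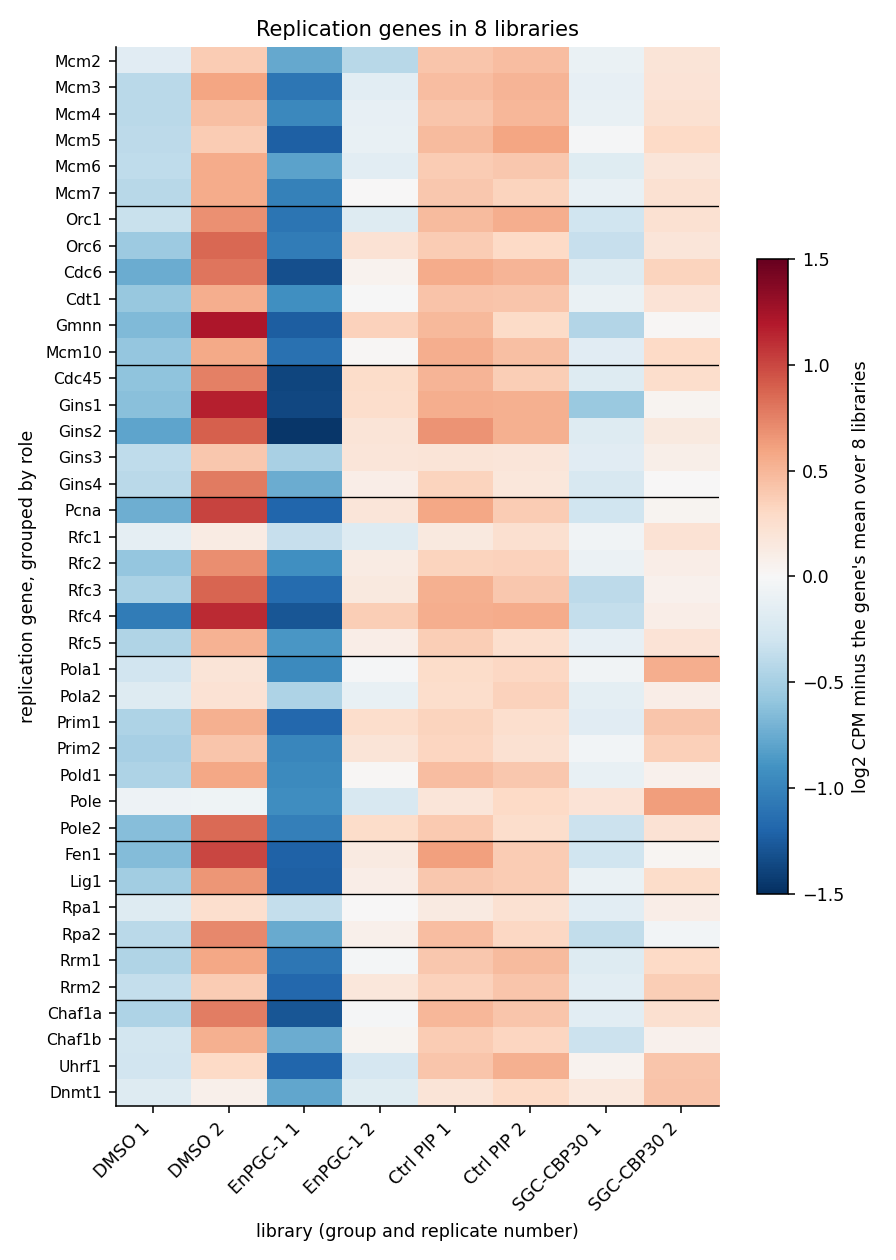
log2 CPM of each replication gene minus its mean over the 8 libraries (colour, from -1.5 to 1.5), with genes in rows grouped by role and libraries in columns. EnPGC-1 replicate 1 is lowest for 40 of 40 genes, DMSO replicate 1 is next for 36, and both Ctrl PIP libraries are above the mean throughout.

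No replication gene passed the test in any comparison. EdgeR's quasi-likelihood test on all 8 libraries called 0 of 40 at an adjusted p of 0.05 in each of the 6 pairwise comparisons and in the test of any difference among the 4 groups, where 0% of the 16750 genes tested were called. DESeq2 called 0 of 40 as well, against 0.133% of genes tested for EnPGC-1 against DMSO, 0.00597% for Ctrl PIP against DMSO, 0.412% for SGC-CBP30 against DMSO, 0.256% for EnPGC-1 against Ctrl PIP, 0.317% for SGC-CBP30 against Ctrl PIP, 0.0537% for EnPGC-1 against SGC-CBP30 and 0.665% for any difference. Limma on the authors' log2 values called 0 of 40 and 0% of genes in each. The median half-width of the 95% intervals of the 40 log2 fold changes was 1.04 to 1.05 in the 6 comparisons. At an unadjusted p under 0.05, edgeR's test of any difference found 2 of 40 (Mcm2 and Pole), against 2.47% of all genes.

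EnPGC-1 against DMSO asks what the agent does relative to its vehicle. All 40 log2 fold changes were below 0, with a median of -0.56 and a range from -0.87 (Gins1) to -0.18 (Gins3), while the median of all genes tested was 0.00 and 49.8% of them were below 0. At an unadjusted p under 0.05, edgeR found 1 of 40, Mcm2, against 2.61% of all genes, and both EnPGC-1 libraries were below both DMSO libraries for 3 of 40 (Mcm2, Rfc1 and Pole), against 9.24% of all genes. The sign of the median turned without DMSO replicate 2, to 0.11. It was -0.14 without EnPGC-1 replicate 1, -1.23 without EnPGC-1 replicate 2 and -0.98 without DMSO replicate 1. In each such fit the group left with 1 library is assumed to vary like the others. At an unadjusted p under 0.05, edgeR then found 16 of 40 without EnPGC-1 replicate 2 (5.04% of all genes), 13 without DMSO replicate 1 (21.7% of all genes), and 0 without either of the other libraries of the comparison. Between libraries with the same number, the median was -0.57 for both the libraries numbered 1 and those numbered 2, and 40 of 40 genes were lower in EnPGC-1 in each. With both libraries numbered 1 left out, edgeR gave a median of -0.57, and with those numbered 2 left out -0.56. Each compared group then held 1 library, so the spread came from Ctrl PIP and SGC-CBP30. Their common coefficient of variation was 0.16, against 0.56 in DMSO and EnPGC-1, so no p-values of these fits are given.

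Against Ctrl PIP, which shares its EnPGC-1 libraries with the comparison above, all 40 log2 fold changes of EnPGC-1 were again below 0. The median was -0.79, which is 1.73-fold lower, against 0.05 over all genes, and the range ran from -1.12 (Uhrf1) to -0.30 (Gins3). Both EnPGC-1 libraries were below both Ctrl PIP libraries for 37 of 40 genes, with Gmnn, Prim1 and Pole2 the exceptions, against 21.7% of all genes. At an unadjusted p under 0.05, edgeR found 9 of 40, against 4.48% of all genes in either direction: 4 of the helicase ring, 1 licensing factor, 2 of the polymerases and 2 that copy chromatin marks. The smallest adjusted p with edgeR was 0.812. The median was -0.35 without EnPGC-1 replicate 1 and -1.41 without EnPGC-1 replicate 2. Without EnPGC-1 replicate 2 the 9 became 27, against 8.31% of all genes. Without EnPGC-1 replicate 1 the count was 1 (3.37% of all genes), and it was also 1 without either Ctrl PIP library (1.89% of all genes without replicate 1 and 1.11% without replicate 2). Among markers of other cells in the same comparison, 10 of 10 B cell markers had log2 fold changes above 0 (median 1.56, 5 without overlap). So did 7 of 9 myeloid markers tested (median 2.43, 1 without overlap) and 5 of 5 erythroid markers tested (median 1.17, 3 without overlap). Of the NK cell markers, 4 of 5 were below 0 (median -1.71, 3 without overlap). Of the 9 CD8 T cell markers, 8 were above 0 (median 0.20, 4 without overlap). Over all genes, 20.7% were higher and 21.7% lower without overlap. The myeloid sum was 70.2 CPM in EnPGC-1 replicate 1 but 7.8 CPM in replicate 2, against 10.2 and 13.3 CPM in Ctrl PIP. EdgeR called 0 of these markers, and their part in the result was not tested.

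EnPGC-1 against SGC-CBP30 gave 40 of 40 below 0 with a median of -0.41, and 4 of 40 (Mcm2, Pole, Uhrf1 and Dnmt1) had an unadjusted p under 0.05, against 2.03% of all genes. Both EnPGC-1 libraries were below both SGC-CBP30 libraries for 8 of 40 genes, against 14.7% of all genes. Without EnPGC-1 replicate 1 the median was 0.03, and without EnPGC-1 replicate 2 it was -1.08. Without SGC-CBP30 replicate 2 it was -0.22. The 4 became 1 with offsets for length and GC content (2.5% of all genes). They became 10 without EnPGC-1 replicate 2 (5.45% of all genes), 1 without EnPGC-1 replicate 1 (1.97%), 1 without SGC-CBP30 replicate 1 (1.18%) and 0 without SGC-CBP30 replicate 2 (0.579%). All 10 B cell markers were higher in both EnPGC-1 libraries than in both SGC-CBP30 libraries (median log2 fold change 2.33). So were 4 of the 5 erythroid markers tested (median 2.46), against 13.2% of all genes. Of the 9 myeloid markers tested, 8 were above 0 (median 3.24) and 1 did not overlap. The myeloid sum was 70.2 CPM in EnPGC-1 replicate 1, of which Mpo made 44.3 CPM. In EnPGC-1 replicate 2 it was 7.8 CPM, below both SGC-CBP30 libraries. EdgeR called 0 of these markers, and their part in the result was not tested.

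Ctrl PIP against DMSO gave 38 of 40 log2 fold changes above 0, with a median of 0.21 against -0.05 over all genes. Both Ctrl PIP libraries were above both DMSO libraries for 8 of 40 genes, against 8.34% of all genes, and 0 of 40 had an unadjusted p under 0.05 with edgeR, against 0.597%. Without DMSO replicate 1 the median was -0.17 and without DMSO replicate 2 it was 0.87, so that its sign was set by which DMSO library was kept. SGC-CBP30 against DMSO gave 31 of 40 below 0 with a median of -0.11, and 0 of 40 had an unadjusted p under 0.05 with edgeR, against 4.39%. Both SGC-CBP30 libraries were above both DMSO libraries for 2 of 40 (Pole and Dnmt1), against 16.2% of all genes. The median was 0.49 without DMSO replicate 2, -0.53 without DMSO replicate 1, 0.04 without SGC-CBP30 replicate 1 and -0.28 without SGC-CBP30 replicate 2. Against DMSO, 10 of 10 B cell markers were below 0 for Ctrl PIP (median -1.27) and for SGC-CBP30 (median -2.31). For SGC-CBP30, 8 of them were lower without overlap, against 14.45% of all genes. Of 5 NK cell markers, 3 were above 0 for Ctrl PIP and 0 for SGC-CBP30. Of the 9 CD8 T cell markers, 8 were below 0 for Ctrl PIP (median -0.19) and 7 for SGC-CBP30 (median -0.20). EdgeR called 0 of these markers, and their part in the result was not tested.

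SGC-CBP30 against Ctrl PIP, the comparison whose replicates were closest, gave 38 of 40 below 0, with a median of -0.38, which is 1.30-fold lower, against 0.01 over all genes. Both SGC-CBP30 libraries were below both Ctrl PIP libraries for 32 of 40 genes, against 30.2% of all genes. In the fit of all 8 libraries 0 of 40 had an unadjusted p under 0.05, against 3.99% of all genes. When edgeR was fitted on these 4 libraries alone, whose spread is smaller, 9 of 40 passed at an adjusted p of 0.05, all lower with SGC-CBP30, against 8.51% of the 15660 genes tested that were called lower. These 9, named after their values were seen, were Fen1, Rfc4, Rpa2, Gins2, Pold1, Gins1, Pcna, Rfc3 and Gmnn, with edgeR log2 fold changes in that fit from -0.77 (Gins1) to -0.46 (Pold1) and adjusted p from 0.0302 to 0.0489. They include the clamp Pcna, Rfc3 and Rfc4 of its loader, and the nuclease Fen1. The loader parts Rfc1, Rfc2 and Rfc5 were not called in that fit, with adjusted p of 0.586, 0.0821 and 0.201 in edgeR. Rank correlations of a gene's deviation from its mean with transcript length were 0.54 and 0.48 in the SGC-CBP30 libraries. They were -0.52 and -0.20 in Ctrl PIP, over genes with a mean log2 CPM over 3. With length and GC offsets in the fit of all libraries, the median of the 40 was -0.33, with 39 below 0. Gins1 was then at -0.41 and Pcna at -0.31, against -0.77 and -0.60 without offsets. The part of length was not tested, and the 4 libraries alone were not fitted with offsets. In the fit of all libraries 9 of 10 B cell markers (median -1.12) and 5 of 5 NK cell markers (-2.31) were also below 0. So were 5 of 5 erythroid markers tested (-1.45). Of the 9 CD8 T cell markers, 5 were below 0 (median -0.015). EdgeR called 0 of these markers, and their part in the result was not tested. The median of the 40 in the fit of all libraries was -0.21 without SGC-CBP30 replicate 1 and -0.56 without SGC-CBP30 replicate 2.

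**Figure D3:**
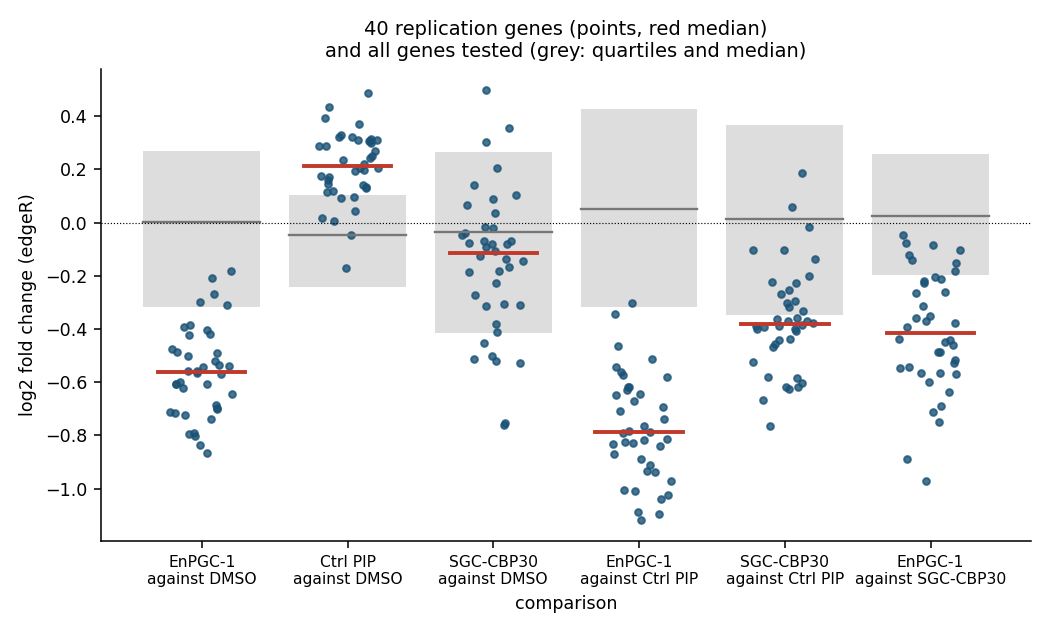
edgeR log2 fold changes of the 40 replication genes (points; red line, their median) in 6 comparisons, beside the quartiles (grey band) and median (grey line) of all 16750 genes tested. All 40 points lie below 0 in the 3 comparisons of EnPGC-1, and their medians are -0.56 against DMSO, -0.79 against Ctrl PIP and -0.41 against SGC-CBP30; comparisons that share a group are not independent.

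The MCM ring, Mcm2 to Mcm7, is the helicase that unwinds DNA ahead of the fork. Mcm2 was at 151 and 219.9 CPM in DMSO, 99.1 and 127 in EnPGC-1, 225 and 234 in Ctrl PIP, and 157 and 194 in SGC-CBP30. Both EnPGC-1 libraries were below all 6 others. The log2 fold change of EnPGC-1 was -0.72 (SE 0.26) against DMSO, with an unadjusted p = 0.0285 and an adjusted p = 0.998 in edgeR, and -1.02 (SE 0.26) against Ctrl PIP, with an unadjusted p = 0.00604 and an adjusted p = 0.812. Mcm2 had the smallest p of the 40 genes in the test of any difference (unadjusted p = 0.0341, adjusted p = 1.00 in edgeR). Mcm5, whose promoter window is printed above, was at 244 and 417 CPM in DMSO, 137 and 297 in EnPGC-1, 445 and 482 in Ctrl PIP, and 317 and 394 in SGC-CBP30. The second EnPGC-1 library thus lay between the DMSO libraries and below both Ctrl PIP and both SGC-CBP30 libraries. Over the 6 ring genes the log2 fold changes of EnPGC-1 ran from -0.72 to -0.57 against DMSO and from -1.09 to -0.79 against Ctrl PIP, and 6 of 6 were lower without overlap in EnPGC-1 than in Ctrl PIP, against 21.7% of all genes.

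A further 6 genes license origins or control licensing: Orc1 and Orc6 of the origin recognition complex, the loaders Cdc6 and Cdt1, geminin (Gmnn), which holds Cdt1 back after S phase begins, and Mcm10, which helps to open the loaded ring. Orc1 was at 14.5 and 29.3 CPM in DMSO, 8.52 and 15.95 in EnPGC-1, 25.4 and 26.65 in Ctrl PIP, and 14.8 and 21.4 in SGC-CBP30. The EnPGC-1 and DMSO values overlapped, and the EnPGC-1 values lay below both Ctrl PIP values. Its log2 fold change in EnPGC-1 was -0.84 (SE 0.44) against DMSO and -1.09 (SE 0.44) against Ctrl PIP, with adjusted p of 0.998 and 0.812 in edgeR. The 6 genes ran from -0.84 to -0.49 against DMSO, where 0 of 6 were lower without overlap (9.24% of all genes), and from -1.09 to -0.62 against Ctrl PIP, where 5 of 6 were (21.7% of all genes). Gmnn overlapped because its second EnPGC-1 library (70.8 CPM) exceeded the second Ctrl PIP library (68.0 CPM). Gmnn also differed 3.67-fold between the DMSO libraries, at 35.2 and 129 CPM.

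Cdc45 and the GINS subunits turn the loaded ring into the active helicase, and for EnPGC-1 against DMSO they held both extremes of the 40, Gins1 and Gins3. Gins1 was at 11.3 and 38.98 CPM in DMSO, 6.75 and 20.8 in EnPGC-1, 25.3 and 25.1 in Ctrl PIP, and 11.8 and 17.8 in SGC-CBP30. The DMSO libraries enclosed all the others except the first EnPGC-1 library. Its log2 fold change was -0.87 (SE 0.69) for EnPGC-1 against DMSO, but 0.29 without DMSO replicate 2, and -0.77 (SE 0.69) for SGC-CBP30 against Ctrl PIP. Gins3 had the largest p of the 40 in the test of any difference (unadjusted p = 0.824 in edgeR), at 15.5 and 26.8 CPM in DMSO, 14.4 and 22.8 in EnPGC-1, 23.0 and 22.9 in Ctrl PIP, and 17.9 and 21.4 in SGC-CBP30. It changed sign to 0.27 without DMSO replicate 2 in EnPGC-1 against DMSO, where the value with all libraries was -0.18 (SE 0.34). Across the 5 genes the log2 fold changes of SGC-CBP30 against Ctrl PIP ran from -0.77 to -0.22, and 5 of 5 were lower without overlap, against 30.2% of all genes.

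PCNA is the sliding clamp, and the replication factor C subunits Rfc1 to Rfc5 load it. Pcna was at 229.9 and 771 CPM in DMSO, 167 and 433 in EnPGC-1, 571 and 497 in Ctrl PIP, and 309.6 and 393 in SGC-CBP30. It spanned 3.35-fold within DMSO and 0.870-fold (replicate 2 over replicate 1) within Ctrl PIP. The log2 fold change of EnPGC-1 was -0.74 (SE 0.64) against DMSO, which became 0.39 without DMSO replicate 2, and -0.83 (SE 0.64) against Ctrl PIP. Rfc1 was the steadiest of the 40 over the 8 libraries, at 104 and 125 CPM in DMSO, 89.5 and 99.97 in EnPGC-1, 126 and 135 in Ctrl PIP, and 110.1 and 133 in SGC-CBP30. Both EnPGC-1 values were the lowest of the 8, with a log2 fold change of -0.27 (SE 0.20) against DMSO and -0.46 (SE 0.20) against Ctrl PIP, and adjusted p of 0.998 and 0.812 in edgeR. Rfc4 spanned the widest range within DMSO of all 40 genes, 20.9 and 94.1 CPM, a 4.5-fold difference.

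The polymerases and primase start and extend the new strands: Pola1, Pola2, Prim1 and Prim2 form polymerase alpha with primase, Pold1 is the catalytic subunit of polymerase delta, and Pole and Pole2 belong to polymerase epsilon, the main enzyme of the leading strand. Pole, with a transcript of 7163 bases, departed from most of the other genes. It was at 92.4 and 93.4 CPM in DMSO, 51.2 and 82.6 in EnPGC-1, 110.2 and 120.4 in Ctrl PIP, and 112 and 150 in SGC-CBP30. Its DMSO replicates were almost equal, its EnPGC-1 values lay below all 6 others, and its highest value was in SGC-CBP30. The log2 fold change of EnPGC-1 was -0.47 (SE 0.27) against DMSO and -0.79 (SE 0.28) against Ctrl PIP, with adjusted p of 0.998 and 0.812 in edgeR, and the test of any difference gave an unadjusted p = 0.0480. SGC-CBP30 against Ctrl PIP gave 0.19 (SE 0.27), with a sign that turned to -0.20 with length and GC offsets and a replicate block. Prim1 and Pole2 were among the 3 genes with the largest p in the test of any difference. Prim1 was at 45.7 and 91.5 CPM in DMSO, 27.9 and 76.0 in EnPGC-1, 79.3 and 75.1 in Ctrl PIP, and 56.2 and 84.4 in SGC-CBP30. Pole2 was at 18.8 and 52.6 CPM in DMSO, 14.4 and 35.4 in EnPGC-1, 38.45 and 35.1 in Ctrl PIP, and 23.5 and 34.0 in SGC-CBP30. The second EnPGC-1 library of each fell within the Ctrl PIP pair. Of the 7 genes, 5 were lower without overlap in EnPGC-1 than in Ctrl PIP (21.7% of all genes). In SGC-CBP30 against Ctrl PIP 3 of the 7 were, against 30.2% of all genes.

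Fen1 trims the flaps of Okazaki fragments and Lig1 seals them. Fen1 was at 64.0 and 202 CPM in DMSO, 43.6 and 110.4 in EnPGC-1, 154 and 131 in Ctrl PIP, and 81.9 and 103 in SGC-CBP30. All 4 libraries of EnPGC-1 and SGC-CBP30 were below both Ctrl PIP libraries, and the DMSO libraries enclosed all of these except the first EnPGC-1 library. Its log2 fold change was -0.79 (SE 0.61) for EnPGC-1 against DMSO, 0.27 without DMSO replicate 2, -0.89 (SE 0.61) for EnPGC-1 against Ctrl PIP, and -0.62 (SE 0.61) for SGC-CBP30 against Ctrl PIP. In the fit of 4 libraries the last was -0.63 (SE 0.15, adjusted p = 0.0302 in edgeR), the smallest p of the 40 there.

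Rpa1 and Rpa2 coat the single strands that the helicase exposes. Rpa2 was at 65.2 and 142 CPM in DMSO, 51.2 and 91.4 in EnPGC-1, 119.7 and 107 in Ctrl PIP, and 67.0 and 84.3 in SGC-CBP30. Both EnPGC-1 and both SGC-CBP30 libraries were below both Ctrl PIP libraries. Its log2 fold change was -0.67 (SE 0.43) for EnPGC-1 and -0.58 (SE 0.43) for SGC-CBP30, each against Ctrl PIP, with adjusted p of 0.812 and 0.871 in edgeR. Against DMSO it was -0.54 (SE 0.43) for EnPGC-1, and 0.13 without DMSO replicate 2.

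Rrm1 and Rrm2 are the subunits of ribonucleotide reductase, which makes deoxynucleotides. Rrm1 was at 239 and 489.7 CPM in DMSO, 154 and 319.6 in EnPGC-1, 434 and 456 in Ctrl PIP, and 285 and 404 in SGC-CBP30. The EnPGC-1 values overlapped those of DMSO and SGC-CBP30 and were below both of Ctrl PIP. For EnPGC-1 the log2 fold change was -0.62 (SE 0.46) against DMSO, -0.015 without DMSO replicate 2, and -0.91 (SE 0.47) against Ctrl PIP.

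The last 4 genes restore chromatin and DNA methylation behind the fork: Chaf1a and Chaf1b deposit histones, Uhrf1 recognises half-methylated CpG sites, and Dnmt1 methylates them. Uhrf1, with an E2F form in its printed window, was at 203 and 305 CPM in DMSO, 108 and 208 in EnPGC-1, 329 and 358 in Ctrl PIP, and 256.5 and 330.3 in SGC-CBP30. Its second EnPGC-1 library was close to the first DMSO library and below both libraries of each other agent. The log2 fold change of EnPGC-1 was -0.68 (SE 0.37) against DMSO and -1.12 (SE 0.37, unadjusted p = 0.0206, adjusted p = 0.812 in edgeR) against Ctrl PIP, the lowest of the 40 there. Dnmt1 was at 378 and 455 CPM in DMSO, 252 and 382 in EnPGC-1, 493 and 533 in Ctrl PIP, and 484 and 583 in SGC-CBP30. Like Pole, it was higher in both SGC-CBP30 libraries than in both DMSO libraries, and it did not separate SGC-CBP30 from Ctrl PIP, at a log2 fold change of 0.06 (SE 0.27, interval from -0.58 to 0.69) whose sign changed in 5 of 14 alternatives. The log2 fold change of EnPGC-1 was -0.39 (SE 0.27) against DMSO and -0.69 (SE 0.27, unadjusted p = 0.0378, adjusted p = 0.812 in edgeR) against Ctrl PIP.

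**Figure D4:**
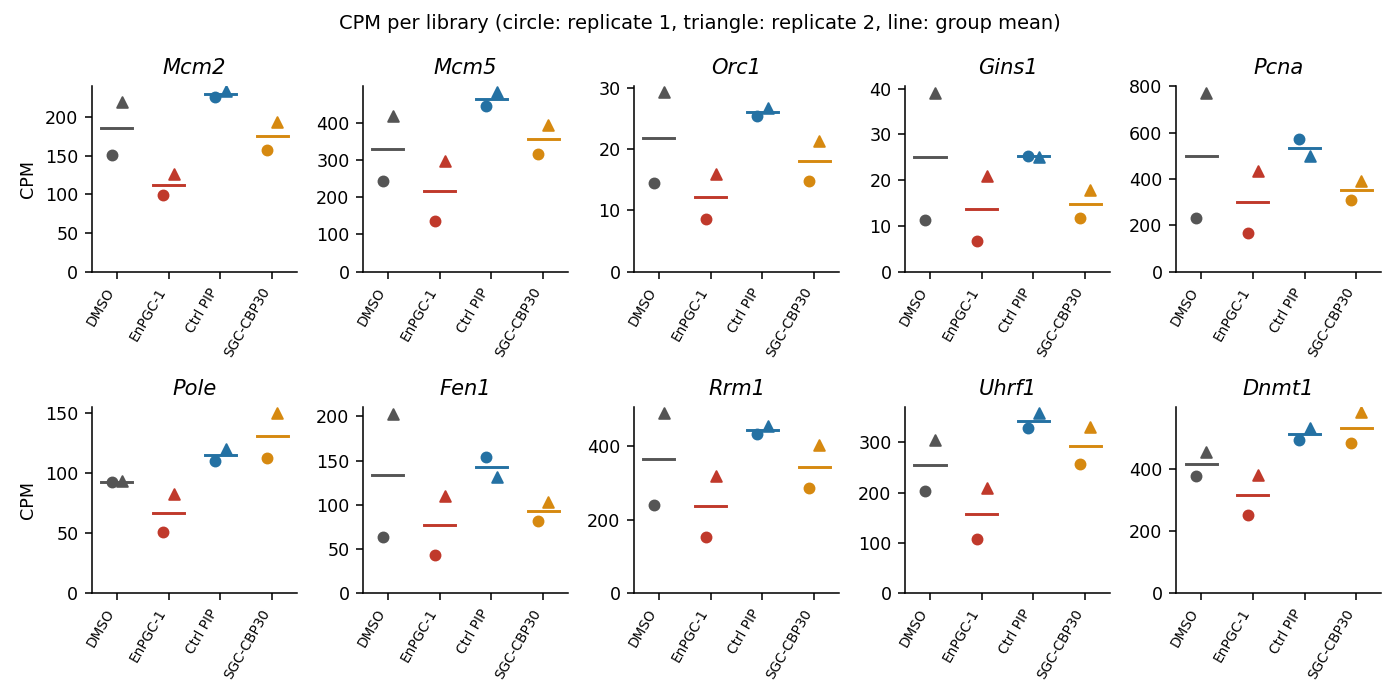
CPM of 10 replication genes in each library (circles, replicate 1; triangles, replicate 2; lines, means of 2), by group. The DMSO pair of Pcna (229.9 and 771 CPM) encloses every other library except the first of EnPGC-1, while that of Pole (92.4 and 93.4 CPM) is close, with EnPGC-1 below it and both other agents above it.

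The 15 genes with an E2F form in their promoter and the 17 without one had close medians. The median log2 fold change of EnPGC-1 was -0.61 with and -0.54 without the form against DMSO, and -0.82 and -0.74 against Ctrl PIP. The 8 genes with no promoter sequence at hand had medians of -0.56 and -0.72. The range within each set was wider than the gap between the sets, from -1.12 to -0.30 with the form and from -1.02 to -0.34 without it against Ctrl PIP. No test was made of this difference.

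Per kilobase of the longest annotated transcript, the median over the 8 libraries was highest for Pcna, at 272 CPM per kb. Rrm2 followed at 132, and Mcm7 and Mcm5 at 115 and 105. The lowest were Orc1 at 6.19, Gins2 at 6.89, Gins3 at 8.78 and Chaf1a at 11.6 CPM per kb. The lengths used were 3900 bases for Gins2 and 7698 for Chaf1a, and a shorter transcript would give a higher level. The order therefore depends on this choice of length. Pcna was the highest of its role in all 8 libraries, from 110.3 CPM per kb in EnPGC-1 replicate 1 to 508 in DMSO replicate 2. Neighbours in this order, such as Mcm7 and Mcm5, differed by less than their range across libraries (52.5 to 156 and 40.5 to 142 CPM per kb). Within the helicase ring Mcm7 was highest in 7 libraries and Mcm5 in 1. The ring holds its subunits in equal numbers, and the median of Mcm2, 50.2 CPM per kb, was the lowest of the 6.

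The difference between the replicates of a group was itself uneven over the 40 genes. The log2 difference of replicate 2 minus replicate 1 had a median of 1.02 for DMSO and 1.03 for EnPGC-1, against 0.36 for SGC-CBP30 and -0.02 for Ctrl PIP. It was above 0 for 40 of 40 genes in every group except Ctrl PIP. In DMSO it ran from 0.01 (Pole, 7163 bases long) to 2.17 (Rfc4, 1279 bases long). Its rank correlation with transcript length over the 40 genes was -0.51 for DMSO, -0.40 for EnPGC-1, -0.17 for SGC-CBP30 and 0.51 for Ctrl PIP. Over the 15427 genes with a length it was, in that order, -0.46, -0.41, -0.10 and 0.27. Genes of 1 library share its preparation and depth, and these correlations are descriptions. After smooth trends on length and GC content were removed, the medians of the 40 genes were 0.87 in DMSO and 0.92 in EnPGC-1. In each, 40 of 40 were above 0. The part of length and GC content in the difference between replicates was not tested. The ribosomal RNA transcript Rn18s-rs5 stood at 10070 and 9044 CPM in the second libraries of DMSO and EnPGC-1 and at 1119 to 2311 CPM in the other 6; its part in the result was not tested. The 20 shortest and 20 longest of the genes had median log2 fold changes of -0.56 and -0.59 for EnPGC-1 against DMSO, and -0.70 and -0.88 against Ctrl PIP. For EnPGC-1 against SGC-CBP30 they were further apart, at -0.22 and -0.54. For SGC-CBP30 against Ctrl PIP they were -0.39 and -0.37.

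**Figure D5:**
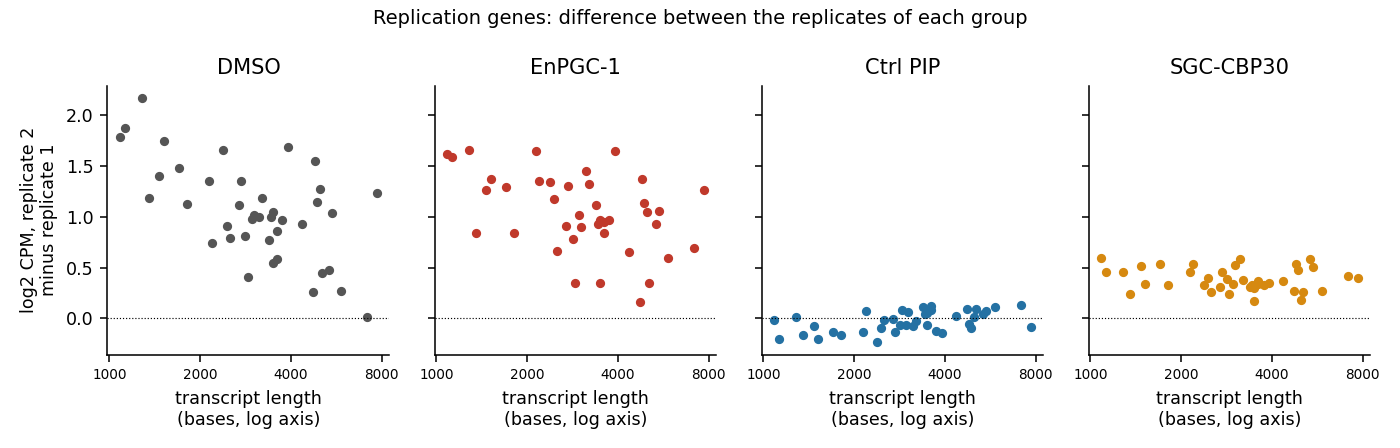
log2 CPM of replicate 2 minus replicate 1 (vertical axis) against transcript length in bases (horizontal log axis) for the 40 replication genes, 1 panel per group. The points fall with length in DMSO (rank correlation -0.51) and EnPGC-1 (-0.40), lie around 0 in Ctrl PIP and between 0.17 and 0.59 in SGC-CBP30.

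A second list held 40 other replication genes: the remaining origin recognition subunits, kinases and factors that fire origins, fork protection, accessory polymerase subunits, and enzymes of thymidylate and deoxynucleotide supply. All 40 were tested, and edgeR called 0 of 40 in each of the 6 comparisons. For EnPGC-1, 37 of 40 were below 0 against DMSO (median -0.40) and 39 of 40 against Ctrl PIP (median -0.50), and at an unadjusted p under 0.05 edgeR found 1 and 2 of them, against 2.61% and 4.48% of all genes. Both EnPGC-1 libraries were below both Ctrl PIP libraries for 30 of 40, against 21.7% of all genes. The 3 with the smallest p in the test of any difference were Dna2, Ticrr and Atad5. Dna2, a nuclease of long flaps, was at 20.3 and 23.2 CPM in DMSO, 11.3 and 14.3 in EnPGC-1, 23.7 and 26.2 in Ctrl PIP, and 15.9 and 24.96 in SGC-CBP30, with both EnPGC-1 libraries below all 6 others. Ticrr, which brings Cdc45 to origins, was at 45.8 and 51.15 CPM in DMSO, 24.55 and 47.2 in EnPGC-1, 54.15 and 60.9 in Ctrl PIP, and 63.2 and 87.4 in SGC-CBP30. Atad5, which takes PCNA off DNA, was at 37.5 and 46.3 CPM in DMSO, 22.3 and 41.05 in EnPGC-1, 52.3 and 58.1 in Ctrl PIP, and 51.1 and 76.6 in SGC-CBP30.

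The third list held 21 genes that control E2F activity or are driven with it: E2F factors, their DP partners, the pocket proteins, cyclins E and A and the kinase they bind. EdgeR called 0 of 21 in each of the 6 comparisons. For EnPGC-1, 16 of 21 were below 0 against DMSO (median -0.23), with 0 at an unadjusted p under 0.05 in edgeR (2.61% of all genes), and 17 of 21 against Ctrl PIP (median -0.50), with 6 (4.48% of all genes). The 3 with the smallest p in the test of any difference were Tfdp2, E2f4 and Tfdp1. Tfdp1, the main partner of the E2F factors, was at 139 and 242 CPM in DMSO, 89.1 and 140.1 in EnPGC-1, 236 and 228 in Ctrl PIP, and 141.5 and 181 in SGC-CBP30. E2f4, an E2F that mostly represses, was at 120.4 and 152 CPM in DMSO, 93.2 and 108 in EnPGC-1, 141.5 and 144 in Ctrl PIP, and 104 and 111 in SGC-CBP30. Tfdp2, a second DP partner, was at 45.3 and 28.3 CPM in DMSO, 38.4 and 34.5 in EnPGC-1, 34.5 and 36.8 in Ctrl PIP, and 53.9 and 64.95 in SGC-CBP30. Both EnPGC-1 libraries of E2f4 were below both DMSO and both Ctrl PIP libraries, and Tfdp2 was higher in both SGC-CBP30 libraries than in all 6 others.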

How the data were processed

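The authors deposited whole-number counts per gene for 8 libraries and regularized log2 values of 16442 genes. Per the submitters' processing notes, the tools were HISAT2, StringTie and DESeq2 and the build was mm10. Not given in the sources used here are the counter, its strand setting and the annotation, so overlapping and antisense genes may share counts. The libraries came from a stranded poly(A) kit, per the labels' protocols. The headers of the deposited log2 table stand 1 column left of their values, and columns were assigned by that shift, checked against the counts. Columns of samples outside the series numbered 0.

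Counts were tested with edgeR 4.0.16 in R 4.3.3 (TMM, filterByExpr, glmQLFit robust, glmQLFTest, two-sided), with 4 group means over all 8 libraries, 4 residual degrees of freedom and Benjamini-Hochberg adjustment at 0.05 over 16750 genes. Alternatives used DESeq2 1.42.0, limma 3.58.1 on the deposited log2 values, DESeq2 size factors, no filter, a replicate block, length and GC offsets (mgcv 1.9.3), 4 libraries only and libraries left out. The code was tested on simulated data. Log2 CPM used a prior count of 2. Transcript lengths are those of the longest transcript of each gene, of any type, in GENCODE mouse release 21. They were known for 92.1% of the genes tested and 40 of the 40 replication genes. Symbols and promoters came from RefSeq on GRCm38.p6.

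The replication genes and all lists were chosen with earlier results of these data known. Values in every library are given for the gene with the smallest p of each role, the 5 with the smallest and the 3 with the largest p for any difference, and Pcna and Mcm2. The 3 genes with the smallest p stand for each further list.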

Additional observations from a re-analysis of the deposited data

How the results depend on the processing

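Over 14 or 15 alternatives per comparison, the number of replication genes called stayed at 0 in every comparison, with 1 exception. SGC-CBP30 against Ctrl PIP on its 4 libraries only gave 9, all lower, against 8.51% of the genes tested that were called lower. Fewer libraries with a smaller spread entered that fit. Some alternatives left a group, or both compared groups, with 1 library, which was assumed to vary like the others. Their spread came from the other groups, so 0 called there does not show that the result is stable. In such a fit, EnPGC-1 against DMSO without replicate 1 of both groups, edgeR did call genes outside the 40. With the replicate number as a block, edgeR called 0 in each comparison, while the genes at an unadjusted p under 0.05 went from 9 to 24 for EnPGC-1 against Ctrl PIP (6.27% of all genes), from 1 to 3 for EnPGC-1 against DMSO (2.77%) and from 4 to 6 for EnPGC-1 against SGC-CBP30 (2.51%). Deviations of same-numbered libraries, over 16750 genes, correlated at r = 0.67 for EnPGC-1 and DMSO, 0.23 for SGC-CBP30 and DMSO, 0.23 for EnPGC-1 and SGC-CBP30, -0.04 for SGC-CBP30 and Ctrl PIP, -0.23 for EnPGC-1 and Ctrl PIP, and -0.25 for Ctrl PIP and DMSO, so the numbers were not taken as pairing. A block with the Ctrl PIP numbers exchanged, chosen after seeing the data, also called 0. At an unadjusted p under 0.05, edgeR with that block found 30 of 40 for EnPGC-1 against Ctrl PIP (9.14% of all genes). It found 0 for SGC-CBP30 against Ctrl PIP (7.2%) and 0 for Ctrl PIP against DMSO (1.04%). The 40 of 40 below 0 for EnPGC-1 against each other group held under DESeq2 size factors, offsets for length and GC, no filter, DESeq2 and limma, while SGC-CBP30 against DMSO ranged from 25 to 31 of 40. The median over all genes stayed between -0.053 and 0.1 under these. Of the values of the 15 genes described one by one, 201 of 210 kept their direction and call for EnPGC-1 against DMSO, 208 of 210 for EnPGC-1 against Ctrl PIP and 195 of 210 for SGC-CBP30 against Ctrl PIP. The genes whose groups did not overlap went, for EnPGC-1 against DMSO, from 3 to 5 with unscaled totals and 2 with length and GC trends removed. For Ctrl PIP against DMSO they went from 8 to 11 and 5 under the same settings. For SGC-CBP30 against DMSO they went from 2 to 0 with the trends removed. These scalings were chosen after seeing the data. The share of all genes was not computed under them, so a shift common to all genes cannot be told from one in the replication genes.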
